A study of Mus musculus with 7 samples.

Results

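The comparison set 2 libraries of naive double-negative T (DNT) cells against 1 library of CD8 T cells, all sorted from mouse spleen and profiled by droplet single-cell RNA sequencing. DNT cells carry an αβ T cell receptor and neither the CD4 nor the CD8 coreceptor. Members are the cell barcodes of these 3 libraries with at least 200 detected genes and at most 10% mitochondrial molecules, without any Cd79a molecule and with fewer than 2 Lyz2 molecules. Cd79a is part of the B cell receptor and Lyz2 is a myeloid gene. This left 15141 barcodes, 3972 and 6525 of naive DNT replicates 1 and 2 and 4644 of CD8, against 28101 barcodes that passed the quality limits in the 7 libraries of the series. All animals were male C57BL/6 mice, 8 weeks old, and no genetic change or treatment is given for the naive DNT or CD8 groups. The gates shared by the 3 libraries were CD3 positive, NK1.1 negative, TCRαβ positive, TCRγδ negative and CD4 negative. CD8 cells were taken as CD8 positive. Naive DNT cells were taken as CD8 negative and negative for CD1d loaded with αGal or LPC, which removes natural killer T (NKT) cells that bind those lipids. The series design gives the naive DNT libraries as biological replicates. Replicate 1 and CD8 were made with kit v2 of the 10x Chromium 3′ chemistry and replicate 2 with kit v3, so kit and replicate cannot be told apart within the naive DNT group.

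As background, the CD8 coreceptor lets a T cell read peptides on MHC class I. Resting CD8 T cells recirculate through lymphoid organs, and CD8 memory cells stand ready with the chemokine CCL5, cytokine receptors and granule enzymes. Some memory CD8 cells and unconventional αβ T cells also carry receptors first described on natural killer (NK) cells, among them the Ly49 family that binds MHC class I. Immediate early genes such as Fos, Jun and Nr4a1 are switched on within minutes of receptor engagement or cell stress and need no new protein for it.

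Total molecules (UMIs) were 16872619 and 51857152 in naive DNT replicates 1 and 2 and 23960770 in CD8, with a median per cell of 4089.5, 7535 and 4876. The libraries shared few barcode sequences, 29 between naive replicate 1 and CD8, 0 between naive replicate 2 and CD8 and 1 between the naive replicates. The labels were checked at equal depth, with each cell thinned to 1500 UMIs (3931, 6448 and 4634 cells). A Cd8a or Cd8b1 UMI was found in 91.1% of CD8 cells, 2.34% of naive replicate 1 and 0.931% of naive replicate 2, beside 3.38% of the cells sorted as CD4. A Cd4 UMI was found in 1 naive cell of each replicate and in 0 of 4634 CD8 cells, which allows a share of up to 0.0647%. The check is weak for Cd4, since at this depth only 17.8% of the cells sorted as CD4 held a Cd4 UMI. A Cd3d, Cd3e or Cd3g UMI was found in 96.8%, 94.2% and 96.8% of the cells of naive replicate 1, naive replicate 2 and CD8. The receptor constant genes are in the kit v3 reference alone, and there 94.4% of naive replicate 2 cells held a Trac UMI and 8.06% a Trdc UMI at full depth. Trac encodes the α chain and Trdc the δ chain.

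Levels are given as CPM, a gene's UMIs as a proportion of all UMIs on the usual counts-per-1000000 scale, summed over the cells of a library, over the 27514 genes in both references. With 1 CD8 library there is no group spread on the CD8 side, so no test was made, and SD over the naive replicates (n = 2) covers the DNT side alone. A gene was counted as higher when it was at least 2-fold above CD8 in both naive libraries with 20 CPM or more in both, and as lower when at least 2-fold below CD8 in both with 20 CPM or more in CD8. By this rule 188 of 3724 genes (5.05%) were higher and 22 of 3496 genes (0.629%) were lower in naive DNT cells. The difference between the DNT mean and CD8 was larger than the gap between the naive replicates for 186 of the 188 and for 22 of the 22, on the log2 scale. The rule itself largely fixes this outcome, since each called gene had to be 2-fold from CD8 in both replicates, so it is no separate support. A sum over a library cannot tell fewer expressing cells from less RNA per cell, so the share of cells with a UMI at 1500 UMIs per cell is given beside the main genes.

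The naive replicates were far apart. At 20 CPM or more in the higher, 1616 of 5319 genes (30.4%) were 2-fold apart between them, against 22 of 3780 genes (0.582%) between the CD8 library and the Cd8-bearing barcodes of the TCRab library, both kit v2. Replicate 1 alone gave 227 genes higher than CD8 (5.91%) and replicate 2 alone 2028 (39%). Of the 188 genes 60 were 2-fold apart between the replicates, 59 of them with the larger value in replicate 2. Replicate 1 alone gave 38 lower genes (1.09%) and replicate 2 alone 105 (3%). The median gene of mean 10 CPM or more stood 0.40 above CD8 on the log2 scale, 0.16 in replicate 1 and 0.64 in replicate 2. With TMM scaling, which removes most of this shift, 125 of the 188 genes were still called and 41 genes were lower, so that 75.3% of calls were in the higher direction instead of 89.5%. With median-of-ratios scaling it was 74.1%. Near the 2-fold limit, 19 of the 188 genes had a smaller fold of 2.0 to 2.1, such as Pim3 and Gna13, and 30 genes lay just outside at 1.9 to 2.0.

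**Figure D1:**
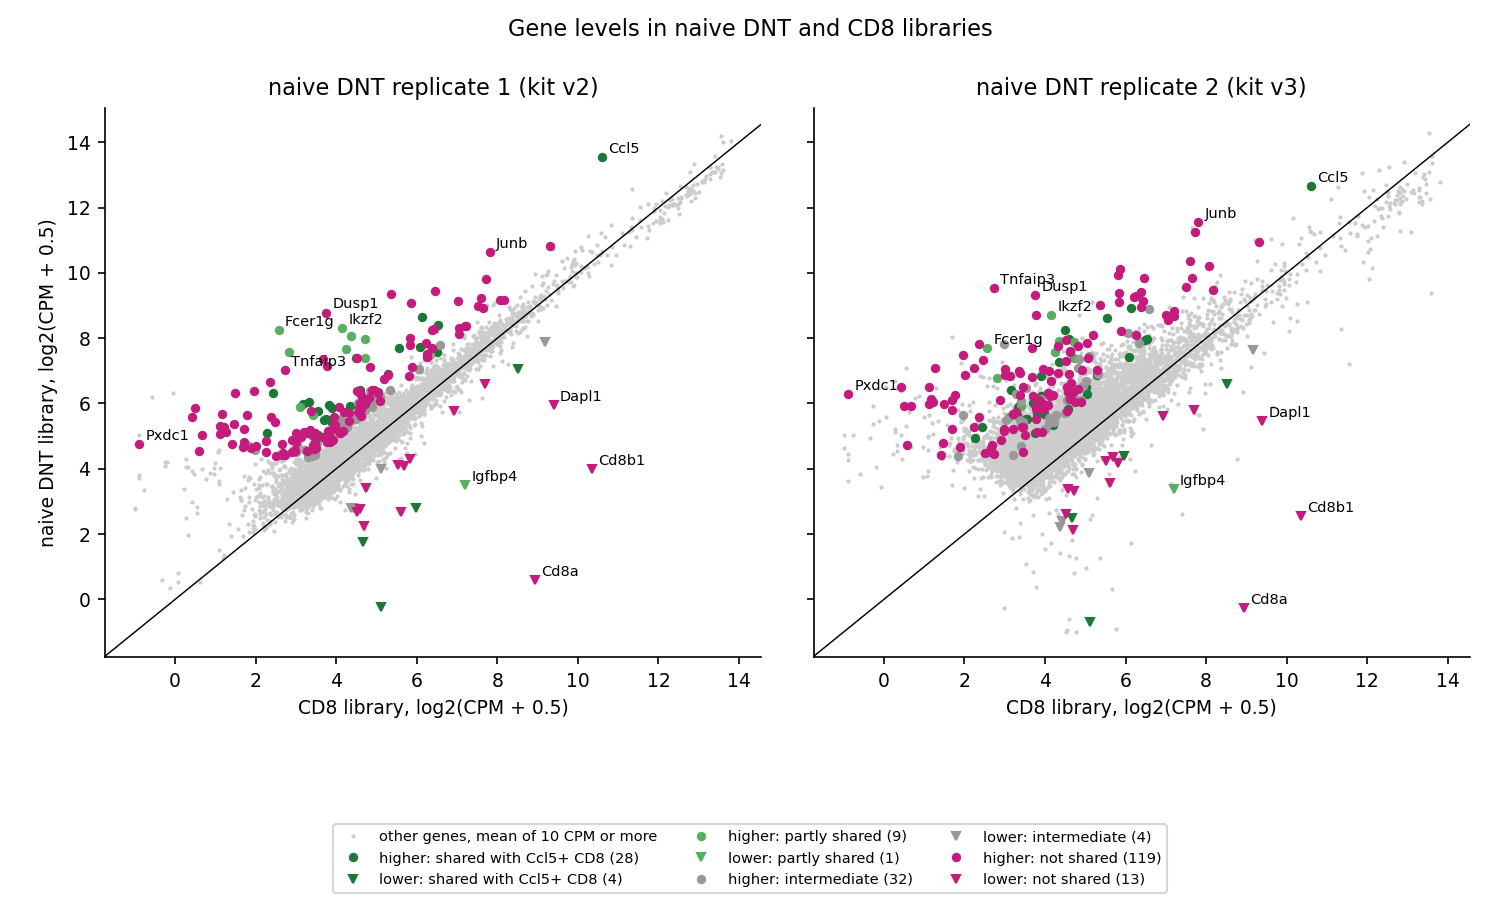
Levels in the CD8 library (x axis) and in naive DNT replicate 1 or 2 (y axes), as log2(CPM + 0.5), where each point is a gene and the line marks equal levels. Coloured points are the 188 higher (circles) and 22 lower (triangles) genes by class, and the cloud of other genes lies above the line in replicate 2, where the median gene is 0.64 higher, and closer to it in replicate 1, where the median is 0.16.

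To separate what CD8 memory-like cells share, cells of the CD8 library were split on 1 gene. Cells with 2 or more Ccl5 UMIs at equal depth (680 cells, 14.7%) are called Ccl5+ CD8 and those with 0 (3268 cells) Ccl5- CD8, with the 686 cells at 1 UMI left out. Of the Ccl5+ cells, 273 had 2 to 4 Ccl5 UMIs and so lie near the limit. In naive DNT, 86.2% of replicate 1 and 73.1% of replicate 2 cells had 2 or more Ccl5 UMIs. Ccl5 UMIs also reached cells that should lack the gene. In naive replicate 2, 18.6% of 70 B-like barcodes (a Cd79a UMI and no Cd3 UMI, median 4854.5 UMIs per barcode) held at least 1, and the CD8 library had 0 B-like barcodes to measure it in. Clustering the CD8 cells on all variable genes gave 1 memory-like cluster of 548 cells in which 10 of 10 memory-like markers were raised, and 434 of its cells were Ccl5+.

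In the Ccl5+ over the Ccl5- CD8 cells, 68 of 3500 genes (1.94%) were at least 2-fold higher, and among the 3724 genes tested for a higher level in DNT cells this held for 49 (1.32%). Of the 188 genes higher in naive DNT cells, 37 (19.7%) were raised in Ccl5+ CD8 cells too. With Ccl5+ set at 1 or more UMIs, 18 of the 37 remained raised. Ccl5, which set the classes, is among the 37. Of the 37, 28 were not 2-fold above Ccl5+ CD8 cells in both replicates and are called shared, and 9 were at least 2-fold above even Ccl5+ CD8 cells and are called partly shared. Another 119 were not raised in Ccl5+ CD8 cells and were 2-fold above them in both replicates (not shared), and 32 met neither condition (intermediate). Over all genes, naive DNT cells were 2-fold above Ccl5+ CD8 cells for 160 of 3724 genes (4.3%), and 128 of the 188 (68.1%) were among them. The class "not shared" includes 10 genes, among them Ifng, Spry2, Klra1 and Klrc2, whose level was at least 2-fold higher in Ccl5+ than in Ccl5- CD8 cells but stayed under 20 CPM there. The CPM limit alone kept these 10 from counting as raised. In Ccl5+ and Ccl5- CD8 cells Klrc2 had 15.1 and 0.122 CPM, Klra1 12.9 and 0.122, Spry2 4.79 and 0.183 and Ifng 4.03 and 0.183.

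**Figure D2:**
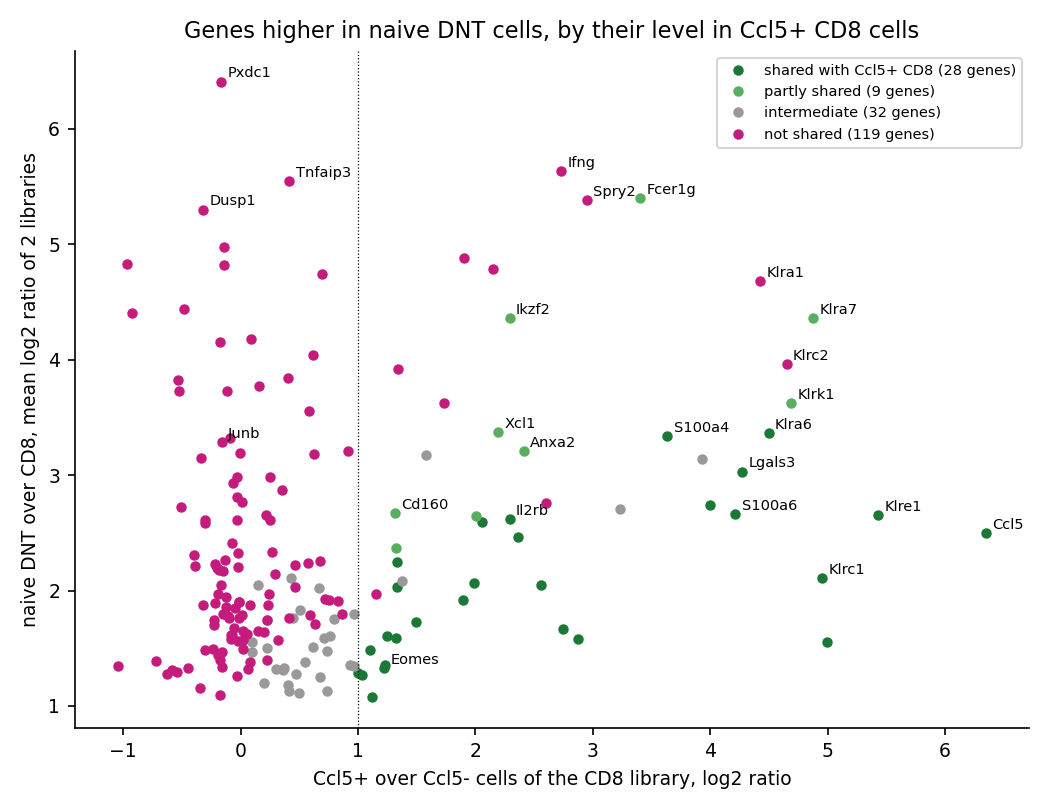
Each point is 1 of the 188 genes higher in naive DNT cells, with the log2 ratio of Ccl5+ to Ccl5- cells of the CD8 library on the x axis and the mean log2 ratio of the 2 naive DNT libraries to CD8 on the y axis. Immediate early genes such as Dusp1, Tnfaip3 and Junb stand near 0 on the x axis, while receptor genes such as Klrk1 and Klra7 and the calcium-binding S100a6 stand to the right of the dotted line at 1, the 2-fold limit.

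Memory genes were higher in naive DNT cells and mostly shared. Of the 28 memory T cell genes measured, 12 were higher in naive DNT cells and 0 lower, with 9 of the 12 shared, 1 partly shared and 2 intermediate (Ccl5, which chose the Ccl5+ cells, is among the 9), and the list's median log2 ratio was 1.49 beside 0.40 for all genes. Il2rb, the β chain of the receptors for IL-2 and IL-15, had 208 and 395 CPM in naive replicates 1 and 2, 46.2 in CD8, 134 in Ccl5+ CD8 and 26.9 in Ccl5- CD8 cells. Both naive libraries were above all CD8 groups. Cd44, an adhesion receptor and a standard marker of antigen-experienced T cells, had 57.8 and 114 CPM against 14.3 in CD8, 41.3 in Ccl5+ and 7.63 in Ccl5- CD8 cells. S100a6 had 402 and 485 CPM against 69.4 in CD8 and 326 in Ccl5+ CD8 cells, and S100a4 had 169 and 302 against 21.9 and 91.5. Eomes, a T-box factor of memory and NK cells, had 61.7 and 57.0 CPM against 23.3 in CD8 and 43.4 in Ccl5+ CD8 cells, and it fell short of 2-fold with TMM scaling. Memory genes that did not pass included Cxcr3, a chemokine receptor, at 78.3 and 98.7 CPM against 41.4 in CD8, and Ly6c2, a surface marker, at 1708 and 862 against 665.

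NK receptor genes were higher in naive DNT cells than in CD8, and part of them also than in Ccl5+ CD8 cells. Of the 11 Ly49 genes measured, 3 reached 20 CPM in both replicates and all 3, Klra1, Klra6 and Klra7, were higher, as were 7 of 19 genes of the NKG2, NKR-P1 and other NK receptor list, with 0 lower in both lists. Of these 10 genes 3 were shared with Ccl5+ CD8 cells, 4 partly shared and 3 not shared. Klra1 and Klrc2 are among the 3 not shared through the CPM limit, though both were raised in Ccl5+ over Ccl5- CD8 cells. Klra7 (Ly49G) had 192 and 109 CPM in naive replicates 1 and 2, 6.55 in CD8 and 35.8 in Ccl5+ CD8 cells. Both replicates were well above Ccl5+ CD8 cells, by 5.36-fold and 3.03-fold. Klra1 had 79.7 and 63.2 CPM against 2.30 in CD8, 12.9 in Ccl5+ CD8 and 0.122 in Ccl5- CD8 cells. Klra6 had 80.2 and 38.1 CPM against 26.0 in Ccl5+ CD8 cells, and replicate 2 was 1.47-fold above them. At equal depth any Ly49 UMI was found in 32.1% of naive replicate 1 cells (95% exact binomial interval 30.7% to 33.6%), 21.9% of replicate 2 cells and 1.88% of CD8 cells (1.51% to 2.31%). Within Ccl5+ cells the shares were 36.5%, 28.1% and 11.2%, and within Ccl5- cells 6.48%, 4.31% and 0.214%. Ly49 genes are near-identical copies in a cluster on chromosome 6, so the split of UMIs among Klra1, Klra6 and Klra7 is uncertain while their joint share is less so.

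Klrk1, which encodes the activating receptor NKG2D, had 266 and 241 CPM in naive DNT replicates 1 and 2, 20.0 in CD8, 102 in Ccl5+ CD8 and 3.48 in Ccl5- CD8 cells. The mean log2 ratio to CD8 was 3.63 ± 0.10 (SD, n = 2), and a UMI was found in 22.9%, 21.5% and 2.20% of cells of naive replicate 1, naive replicate 2 and CD8. Cd160, a receptor for the TNF-family partner HVEM and MHC class I, had 168 and 168 CPM against 25.9 in CD8 and 52.7 in Ccl5+ CD8 cells. Cd7, an early T and NK cell surface protein, had 564 and 419 CPM against 129 in CD8 and 203 in Ccl5+ CD8 cells. Klre1 and Klrc1 were shared: Klre1 had 65.4 and 59.3 CPM against 52.7 in Ccl5+ CD8 cells, and Klrc1 had 53.8 and 45.4 against 58.5. Klrd1, which encodes the NK receptor CD94, was above CD8 but short of 2-fold in replicate 2, at 514 and 346 CPM against 239. A joint share at equal depth was taken over Klrd1, Klrk1, Klre1, Ncr1 and the Klrc, Klri and Klrb1 genes. It was 61.5% and 55.7% of naive cells and 31.4% of CD8 cells. Within Ccl5+ cells it was 67.2%, 65.9% and 48.4% in naive replicate 1, naive replicate 2 and CD8. Within Ccl5- cells it was 25.9%, 26.2% and 28.2%, so naive DNT cells were not above CD8 there by this joint share, which includes Klrd1. Taken by itself, Klrk1 was above CD8 in that class, at 68.3 and 131 CPM against 3.48. A Klrk1 UMI was found there in 9.26% and 13.5% of cells of naive replicates 1 and 2 and 0.428% of CD8 cells. Markers of NK cells were also read. Of the 9, 4 reached the CPM limit, 3 of these were higher (Klre1, Eomes and Tyrobp) and 0 lower, with a median log2 ratio of 1.99. Ncr1, an NK receptor that defines the list, had 0.0593 and 1.18 CPM in naive DNT cells and 0.0417 in CD8, and Klrb1c, which encodes the NK1.1 antigen gated out, had 13.8 and 13.0 against 0.918. The 9 NK markers summed to 247 and 224 CPM in naive DNT, 98.9 in CD8 and 453 in Ccl5+ CD8 cells. Their part in the receptor genes was not tested.

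Of the signalling chains used by such receptors, 2 were higher. Fcer1g, the common Fc receptor γ chain, had 301 and 208 CPM in naive replicates 1 and 2, 5.43 in CD8, 24.2 in Ccl5+ CD8 and 1.83 in Ccl5- CD8 cells. It was found in 29.5% and 20.1% of naive cells and 0.734% of CD8 cells, with 1.43% of the B-like barcodes of replicate 2 as the background share. In replicate 1 it was found in 1 of only 2 B-like barcodes, too few for a share. It was 12.4-fold and 8.58-fold above Ccl5+ CD8 cells in replicates 1 and 2. Tyrobp (DAP12), the adaptor of activating NK receptors, had 41.1 and 27.2 CPM against 2.25 in CD8, and it fell short of the rule with TMM scaling. Fcer1g and Tyrobp are also myeloid genes. The 14 myeloid markers, these 2 included, summed to 737 and 440 CPM in naive DNT and 225 in CD8, with the defining Csf1r at 0.415, 0.366 and 0.292 CPM. S100a8 was at 79.9 and 10.4 against 0.459. The part of myeloid RNA in Fcer1g and Tyrobp was not tested. Of 21 receptor adaptor and proximal signalling genes these 2 alone were called. Cd247, the ζ chain of the receptor complex, was within 2-fold at 145 and 142 CPM against 159, as was Lck, the coreceptor-bound kinase, at 584 and 465 against 582.

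Ikzf2 (chr1:69531214-69687245, minus strand), which encodes the transcription factor Helios, was partly shared. It had 317 and 416 CPM in naive replicates 1 and 2, 17.2 in CD8, 50.7 in Ccl5+ CD8 and 9.95 in Ccl5- CD8 cells. A UMI was found in 34.8% (33.3% to 36.3%), 41.4% (40.2% to 42.6%) and 2.09% (1.70% to 2.55%) of cells of naive replicate 1, naive replicate 2 and CD8. The mean log2 ratio was 4.36 ± 0.28 (SD, n = 2), and DNT cells were 6.25-fold and 8.21-fold above Ccl5+ CD8 cells. Within the CD8 library, a cluster of 234 cells led by Ctla2a, Myb and Izumo1r, with no cell type name, held 22.5% of the library's Ikzf2 UMIs in 5.04% of its cells, and the memory-like cluster held 34.6% in 11.8%. Among the 20 innate-like and lineage transcription factors 3 were higher (Ikzf2, Sox4 and Ahr) and 1 lower (Plac8, which the list holds as an innate-like gene, at 96.1 and 55.8 CPM against 207, a call lost against the TCRab barcodes and with Cd79a and Lyz2 barcodes kept). Ahr, the aryl hydrocarbon receptor, had 22.7 and 25.8 CPM in naive DNT cells against 24 UMIs in the whole CD8 library, a mean log2 ratio of 4.04 ± 0.13 (SD, n = 2), and it lost its call with TMM scaling.

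Secreted factors and chemokines differed in a few genes. Of 22 cytokine and chemokine genes, 6 reached the CPM limit, of which 3 were higher and 0 lower. Xcl1, the chemokine that draws cross-presenting dendritic cells, had 202 and 189 CPM in naive replicates 1 and 2, 18.4 in CD8 and 53.7 in Ccl5+ CD8 cells, with a mean log2 ratio of 3.37 ± 0.07 (SD, n = 2). Ifng, the gene of interferon-γ, had 48.0 and 89.7 CPM against 0.835 in CD8 and 4.03 in Ccl5+ CD8 cells, from 810, 4654 and 20 UMIs in naive replicate 1, naive replicate 2 and CD8. It was found in 6.16% and 8.84% of naive cells and 0.129% of CD8 cells. Ccl4, an inflammatory chemokine, had 45.5 and 33.4 CPM against 13.0 in CD8 and 68.1 in Ccl5+ CD8 cells, and against the Cd8-bearing TCRab barcodes, at 42.4 CPM, its direction turned.

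The 4 granzyme genes raised in Ccl5+ CD8 cells were lower in naive DNT than in those cells. Of 15 cytotoxic effector genes, 9 reached the CPM limit, 0 were higher than in the whole CD8 library and 1, Gzmm, was lower, while 5 were raised in Ccl5+ CD8 cells. Gzmm lost its call with thinned cells, with per-cell means and against the TCRab barcodes, where 1, 2 and 2 genes of the list were higher. Without replicate 1, 3 were higher and 2 lower. Gzma had 61.5 and 29.5 CPM in naive replicates 1 and 2 against 343 in Ccl5+ CD8 cells, Gzmb had 10.8 and 21.6 against 61.5, Gzmk had 12.4 and 4.09 against 48.7, and Gzmm had 5.87 and 5.65 against 108. In all 4 genes both naive replicates were under Ccl5+ CD8 cells by more than 2-fold. Over all genes naive DNT cells were 2-fold under Ccl5+ CD8 cells for 26 of 3500 genes (0.743%), and 12 of these were among the 68 genes raised in Ccl5+ CD8 cells. They held the 4 granzymes, Klrg1 (an inhibitory receptor of effector cells) at 3.02 and 1.47 CPM against 26.2, Cx3cr1 (the fractalkine receptor) at 1.72 and 1.43 against 22.9, G0s2, Fcgrt and the cell cycle genes Birc5, Ube2c, Hist1h2ap and 2810417H13Rik. Against the whole CD8 library, at 60.8 CPM, Gzma was not 2-fold lower. Gzmb, Gzmk, Klrg1 and Cx3cr1 stood at 11.2, 8.85, 4.42 and 4.05 CPM there, so they reached the limit through the Ccl5+ class alone. In Ccl5- cells Gzmb had 19.7 and 43.4 CPM in naive DNT against 0.977 in CD8, and Gzmk 20.7 and 9.89 against 1.04. Gzmm was under CD8 in that class, at 0 and 0.672 against 4.09, and Gzma lay on both sides, at 4.14 and 9.03 against 4.40. Nkg7, a granule membrane gene, had 1324 and 911 CPM against 937 in CD8 and 1461 in Ccl5+ CD8 cells and did not pass. Of the 68 genes raised in Ccl5+ CD8 cells, 37 (54.4%) were higher and 3 lower in naive DNT cells than in the whole CD8 library. Set against Ccl5+ CD8 cells instead, 12 (17.6%) were lower. The 68 were chosen for a high level in that same class, which favours a lower DNT value, so the 12 are no independent support. Ccl5, which set the class, is among the 37 and the 68.

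**Figure D3:**
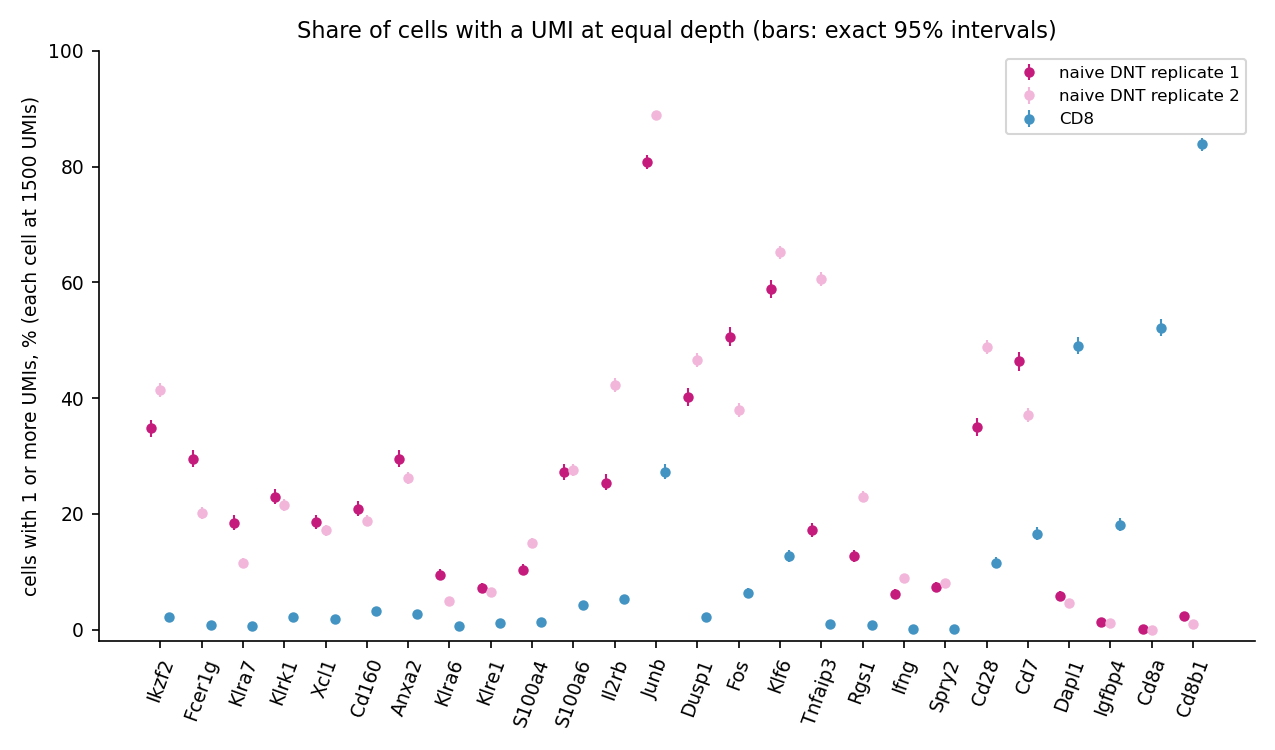
Share of cells with at least 1 UMI for 26 genes, on the y axis in percent after thinning each cell to 1500 UMIs, with points for naive DNT replicate 1, naive DNT replicate 2 and CD8 and bars for exact 95% intervals of counting error. Both naive replicates stand above CD8 for Ikzf2, at 34.8% and 41.4% against 2.09%, and below it for Dapl1, at 5.88% and 4.51% against 49.0%.

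Immediate early and stress genes were higher in naive DNT cells and not shared with Ccl5+ CD8 cells. Of 27 measured, 19 were higher in naive DNT cells and 0 lower, all 19 were in the class not shared, and the list's median log2 ratio was 3.17. Dusp1, a phosphatase that switches off MAP kinases, had 440 and 643 CPM in naive replicates 1 and 2, 13.0 in CD8, 10.3 in Ccl5+ CD8 and 13.0 in Ccl5- CD8 cells. Its share of cells was 40.2%, 46.5% and 2.09% in naive replicate 1, naive replicate 2 and CD8, beside 31.4% of the 70 B-like barcodes of replicate 2. Fos had 649 and 521 CPM against 40.7 in CD8, and Junb had 1588 and 3010 against 224. Fos, Junb and Jun make up the AP-1 factor, and Jun had 538 and 1101 CPM against 57.8. Tnfaip3 (A20), which restrains NF-κB signalling, had 130 and 737 CPM against 6.14 in CD8, so that it was 21.1-fold above CD8 in replicate 1 and 120-fold in replicate 2. Rgs1, a regulator of chemokine receptor signalling, had 101 and 225 CPM against 4.63, and Nr4a1 (Nur77), an orphan nuclear receptor, had 28.6 and 136 against 4.26. The size of these differences depended on the replicate, with 18 of the 19 larger in replicate 2 and 9 at least 2-fold so. The 8 not called include Btg2, at 160 and 340 CPM against 117, Dusp2, at 225 and 189 against 152, and Atf3, at 6.28 and 32.4 with 0 UMIs in CD8.

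The promoters of 3 of these genes are printed since these genes were high together and each holds the core of the cAMP response element, TGACG, which is marked in capitals on either strand together with the full element TGACGTCA. They are the 250 bases before the RefSeq start site on GRCm38.p6, given 5′ to 3′ along the gene. Fos lies on the plus strand with its window at chr12:85473640-85473889, Nr4a1 on the plus strand at chr15:101266596-101266845 and Dusp1 on the minus strand at chr17:26508473-26508722.
Fos: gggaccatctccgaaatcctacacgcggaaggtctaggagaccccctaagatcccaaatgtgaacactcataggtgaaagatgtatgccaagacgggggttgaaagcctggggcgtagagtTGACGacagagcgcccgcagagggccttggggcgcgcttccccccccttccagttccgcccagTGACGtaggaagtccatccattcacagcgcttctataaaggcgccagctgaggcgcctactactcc
Nr4a1: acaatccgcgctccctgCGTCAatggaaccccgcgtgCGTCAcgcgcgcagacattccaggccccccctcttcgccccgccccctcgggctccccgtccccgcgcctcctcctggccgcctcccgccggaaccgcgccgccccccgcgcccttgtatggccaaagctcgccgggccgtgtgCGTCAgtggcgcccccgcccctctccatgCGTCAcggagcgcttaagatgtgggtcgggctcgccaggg
Dusp1: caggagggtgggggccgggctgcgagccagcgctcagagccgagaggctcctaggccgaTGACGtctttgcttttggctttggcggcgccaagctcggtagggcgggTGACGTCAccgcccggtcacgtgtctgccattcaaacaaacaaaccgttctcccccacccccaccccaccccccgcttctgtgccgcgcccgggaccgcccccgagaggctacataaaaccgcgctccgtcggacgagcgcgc
The Dusp1 window holds the full element. RefSeq windows matched 15 of the 19 called genes. On either strand TGACG was found in 9 of the 15 (60.0%), against 17.9% of 27025 promoters of the same length and 31.1% of the 2928 with 20 CPM or more in both naive libraries. The full element, which contains TGACG, was found in 2 of the 15 (13.3%), against 1.62% and 3.28%. Over the 21 list genes with a window, called or not, TGACG was found in 12 (57.1%) and the full element in 3 (14.3%). These shares are close to those of the called genes alone. The AP-1 motif TGANTCA was found in 1 of the 15 (6.67%), against 6.87% and 3.52%, and the CArG box of serum response factor in 1 (6.67%), against 1.40% and 1.16%. These are matches of letters in a short window and describe no binding.

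Other cells, chosen after seeing the data, were read for the same 27 genes. Summed over the list, the level was 7860 and 14803 CPM in naive replicates 1 and 2, 1635 in CD8, 2231 in CD4 and 2269 in TCRab, all 3 of the latter made with kit v2 as was replicate 1. In the 71 B-like barcodes of naive replicate 2, left out of the members, the sum was 18275 CPM, with Junb at 3173, Fos at 808, Dusp1 at 318 and Tnfaip3 at 144. In the 2 B-like barcodes of naive replicate 1 the sum was 4752 CPM, with Junb at 195, both under that library's T cells. Fos, Klf6 and Tnfaip3 were also under them, while Dusp1 at 1172 and Nr4a1 at 391 CPM were above them, at 440 and 28.6. These 2 barcodes had Fcer1g at 2083 CPM against 301 in the T cells, so they are a poor sample of B cells. The B-like barcodes of replicate 2 had Ikzf2 and Fcer1g at 14.1 CPM each. In the TCRab library 20 barcodes had an Fcer1g UMI and no Cd4, Cd8a or Cd8b1 UMI, and there the sum was 2446 CPM, whereas cells with an Fcer1g UMI had 7333 and 12669 in naive replicates 1 and 2. In the B-like barcodes of replicate 2, Dusp1 and Tnfaip3 were under the level of that library's T cells, at 643 and 737 CPM. Junb, Fos, Klf6 and Nr4a1 were above it, at 3173, 808, 1022 and 301 CPM against 3010, 521, 915 and 136. Sort time and handling are not given by the labels, and their part in these genes was not tested. Of the 19 genes, 18 were also 2-fold above CD4 in both replicates and 18 above the Cd8-bearing TCRab barcodes.

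**Figure D4:**
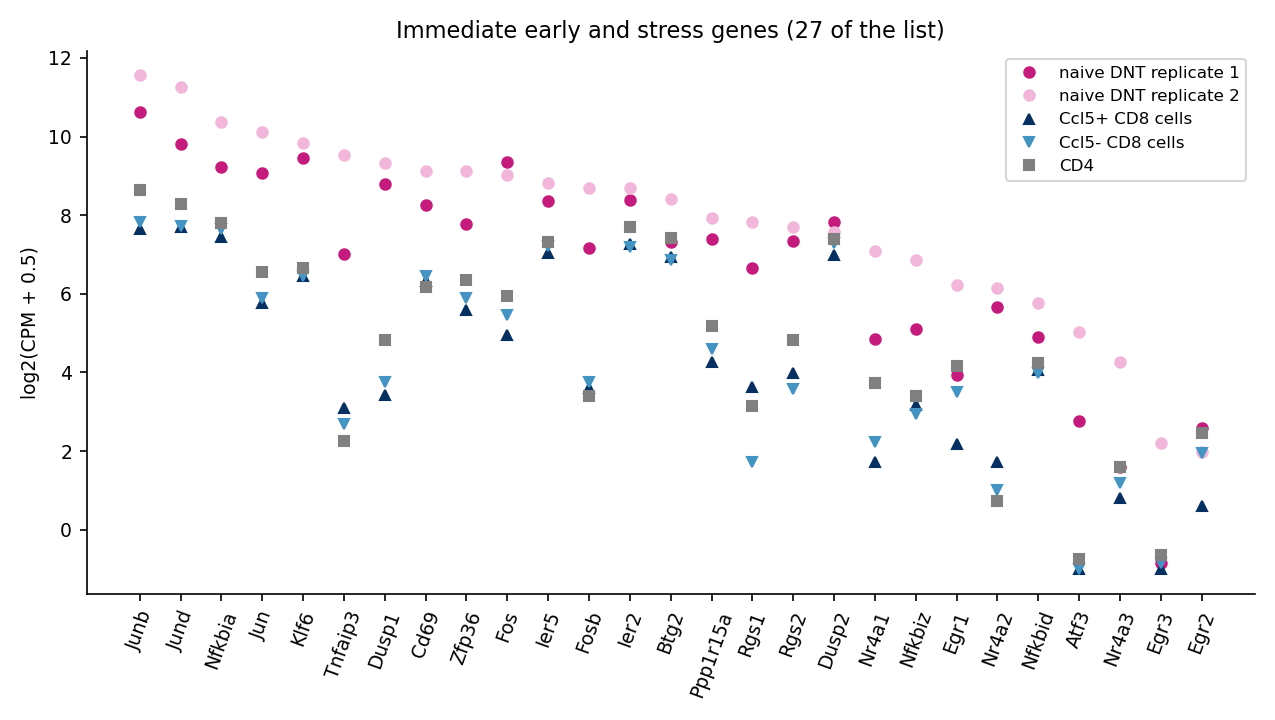
Levels of the 27 immediate early and stress genes as log2(CPM + 0.5) on the y axis, with points for naive DNT replicates 1 and 2, Ccl5+ and Ccl5- CD8 cells and CD4. Ccl5+ and Ccl5- CD8 cells lie close together for most genes, as for Dusp1 at 10.3 and 13.0 CPM, and the 19 called genes lie under both naive replicates in both CD8 classes.

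Outside the immediate early list the class not shared held few known groups, with 86 of its 119 genes in no list. Spry2 (chr14:105891947-105896819, minus strand), an inhibitor of Ras and MAP kinase signalling, had 57.5 and 59.6 CPM in naive replicates 1 and 2, 0.918 in CD8, 4.79 in Ccl5+ CD8 and 0.183 in Ccl5- CD8 cells, and its mean log2 ratio was 5.38 ± 0.04 (SD, n = 2). It is in this class through the CPM limit, since its level was raised in Ccl5+ over Ccl5- CD8 cells. The replicates were close for Spry2 while they differed in kit. Pxdc1 (chr13:34627834-34653486, minus strand) had 26.5 and 77.8 CPM against 0.0417, from 1 CD8 UMI, so the ratios of 635 (95% counting interval 113 to 25128) and 1865 (335 to 73676) are loosely bound. Tmem176a and Tmem176b, ion channel genes that neighbour each other, had 32.4 and 60.4 and 38.0 and 65.7 CPM against 1.09 and 1.84. Pxdc1 had 14.3 and 13.4 CPM in Ccl5+ and 108 and 262 in Ccl5- cells of naive replicates 1 and 2. Tmem176b had 22.8 and 14.9 in Ccl5+ and 114 and 212 in Ccl5- cells. Pxdc1, Tmem176a and Tmem176b were called against CD8 within Ccl5- cells but not within Ccl5+ cells, where at least 1 replicate stayed under 20 CPM. Klf4, a quiescence-linked factor that is also induced by stress, had 34.3 and 135 CPM against 1.92, and Gem, a small GTPase of the RGK family, had 38.9 and 90.6 against 1.67. Dusp5, a nuclear MAP kinase phosphatase, had 43.1 and 161 CPM against 5.05 and was with Spry2 the only called gene of 21 feedback regulators. Cd28, the main costimulatory receptor, had 305 and 494 CPM against 82.9 in CD8 and 106 in Ccl5+ CD8 cells, and was the only called gene of 19 coinhibitory and costimulatory genes, of which 6 reached the CPM limit. Txk, a Tec family kinase, had 319 and 386 CPM against 133, and it fell short with TMM scaling, as did Cd9, a tetraspanin at 66.4 and 65.4 against 26.2.

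Some genes of innate-like T cells were near 0 in CD8 and present in naive DNT cells, mostly of replicate 2. Zbtb16 (PLZF), the factor of NKT and other innate-like T cells, had 3.85 and 24.4 CPM in naive replicates 1 and 2 and 0 UMIs in CD8. Il17a had 0.593 and 14.3 CPM and Blk, a B cell and γδ T cell kinase, 9.66 and 32.2 against 0.0835. None of these 3 genes reached 20 CPM in both replicates, so none could be called. In replicate 2, Zbtb16 had 75.4 CPM in Ccl5- and 6.55 in Ccl5+ cells. The 7 γδ markers measured summed to 36.0 and 145 CPM in naive DNT and 1.5 in CD8, and in replicate 2 a Trdc UMI was found in 13.1% of Ccl5- and 6.43% of Ccl5+ cells. The part of γδ T cells in these values was not tested.

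Few genes were lower in naive DNT cells. The coreceptor genes, which the gate itself sets, were the clearest: Cd8a had 1.01 and 0.328 CPM in naive replicates 1 and 2 against 491, and Cd8b1 had 15.5 and 5.34 against 1307, beside 22.5 for Cd8b1 in CD4. Other lineage genes did not follow, with Runx3, the CD8 lineage factor, at 83.4 and 190 CPM against 79.5 and its relative Runx1 higher at 31.2 and 74.8 against 12.6. Of the 20 quiescence and homing genes, 3 were lower (Dapl1, Igfbp4 and Ccr9) and 1, Txk, higher. Dapl1, a gene of resting T cells, had 61.9 and 43.3 CPM against 674 in CD8 and 396 in Ccl5+ CD8 cells, and its share of cells was 5.88% and 4.51% against 49.0%. Igfbp4, which binds insulin-like growth factors and marks naive T cells, had 10.8 and 9.87 CPM against 146 in CD8, 49.2 in Ccl5+ CD8 and 175 in Ccl5- CD8 cells. Ccr9, the gut-homing receptor, had 6.52 and 20.6 CPM against 62.2 in CD8 and 12.9 in Ccl5+ CD8 cells, and was not called against the TCRab barcodes. Tcf7 and Lef1, related factors of resting and self-renewing T cells, were not called, with Tcf7 at 190 and 315 CPM against 154 and Lef1 at 146 and 191 against 308. These resting genes divided on the CPM scale, Dapl1 and Igfbp4 being lower and Tcf7 and Lef1 within 2-fold of CD8 in at least 1 replicate. The division depends on scaling and class. With TMM or median-of-ratios scaling, 5 of the quiescence and homing genes were lower and 0 higher. Without replicate 1, 3 were lower and 4 higher. Within Ccl5- cells Lef1 was more than 2-fold lower, at 121 and 146 CPM in naive replicates 1 and 2 against 335 in CD8. Within Ccl5+ cells it had 149 and 207 against 198.

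Of the 22 lower genes, 4 were also lower in Ccl5+ than in Ccl5- CD8 cells and not 2-fold beyond (Gm43698, Als2cl, Ccr9 and Gm12840), 1 was partly shared (Igfbp4), 13 were not shared and 4 intermediate, where 18 of the 3496 genes tested (0.515%) were lower in Ccl5+ CD8 cells, or 18 of 3473 (0.518%) with the minimum set in Ccl5- cells. Il6ra, the IL-6 receptor chain, had 5.93 and 11.2 CPM against 48.5 in CD8 and 31.8 in Ccl5+ CD8 cells. It was the only lower gene of 21 cytokine receptors, where Il18r1, at 59.7 and 154 CPM against 19.8, and Ifngr1, at 220 and 472 against 95.2, were higher. Ddit4, a stress-induced inhibitor of mTOR, had 19.1 and 17.7 CPM against 56.2, and unlike the immediate early genes it was lower in both replicates. Gm43698 had 0.356 and 0.116 CPM against 34.3 in CD8 and 0 in CD4. It is annotated on chromosome 5 from 67360387 to 67366599 (GRCm38, plus strand).

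Of 21 interferon response genes, 17 reached the CPM limit and 0 were called in either direction, with a median log2 ratio of -0.45 beside 0.40 for all genes. With TMM or median-of-ratios scaling 5 were lower and 0 higher, and 3 were lower against the TCRab barcodes or without replicate 2. Without replicate 1, 2 were higher and 0 lower. In other lists few members reached the CPM limit. Of 20 proliferation genes 6 did and 0 were called, with a median of 0.09 that was -0.27 with TMM scaling. Of 19 chemokine receptor and integrin genes 6 did and Cd9 alone was called. Cd74 was the 1 call among the 2 of 12 B cell markers that reached it, at 33.8 and 22.5 CPM against 10.5, and turned its direction against the TCRab barcodes, at 33.6. The B cell markers summed to 88.8 and 62.9 CPM in naive DNT and 42.1 in CD8. Red cell and platelet markers gave 0 of 7 calls, and summed to 3774, 842 and 2578 CPM in naive replicate 1, naive replicate 2 and CD8.

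Naive DNT and CD8 cells were also compared within like Ccl5 classes. Ccl5+ naive DNT cells were 2-fold above Ccl5+ CD8 cells for 129 of 3625 genes (3.56%) and under them for 28 of 3500 (0.8%), and Ccl5- naive DNT cells were above Ccl5- CD8 cells for 485 of 4096 (11.8%) and under for 34 of 3473 (0.979%). Of the 188 higher genes, 91 were higher in both strata, 113 in the Ccl5+ and 144 in the Ccl5- stratum, and 22 in neither. The Ccl5- naive stratum of replicate 1 holds 216 cells, with Hbb-bs, a haemoglobin gene, at 7517 CPM against 776 in Ccl5+ cells, and 27.3% of its cells had 2 or more red cell UMIs beside 29.3% of Ccl5+ cells. All 3 Ly49 genes and 6 of the 7 NK receptor genes were higher in Ccl5+ than Ccl5- naive cells in both replicates, as for Klra7 at 219 against 26.9 CPM in replicate 1 and 143 against 11.5 in replicate 2. Of the 12 higher memory genes, 8 were larger in Ccl5- and 3 in Ccl5+ naive cells of both replicates, as for S100a4 at 104 in Ccl5+ against 508 CPM in Ccl5- cells in replicate 1 and 76.8 against 956 in replicate 2. Immediate early genes were larger in Ccl5- naive cells of both replicates in 16 of the 19, as for Fos at 579 against 1145 CPM in replicate 1 and 373 against 926 in replicate 2. Ccl5, which set the classes, is among the 3 memory genes. These list counts take a difference of any size. By that measure 78 of the 119 not shared and 17 of the 32 intermediate genes were larger in Ccl5- cells of both replicates. So were 10 of the 28 shared and 2 of the 9 partly shared genes. The counts larger in Ccl5+ cells were 29, 14, 14 and 6 in the same order. Over all genes, Ccl5+ naive cells of both replicates were 2-fold under Ccl5- naive cells for 131 of 4096 genes (3.2%) and above them for 42 of 3625 (1.16%).

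**Figure D5:**
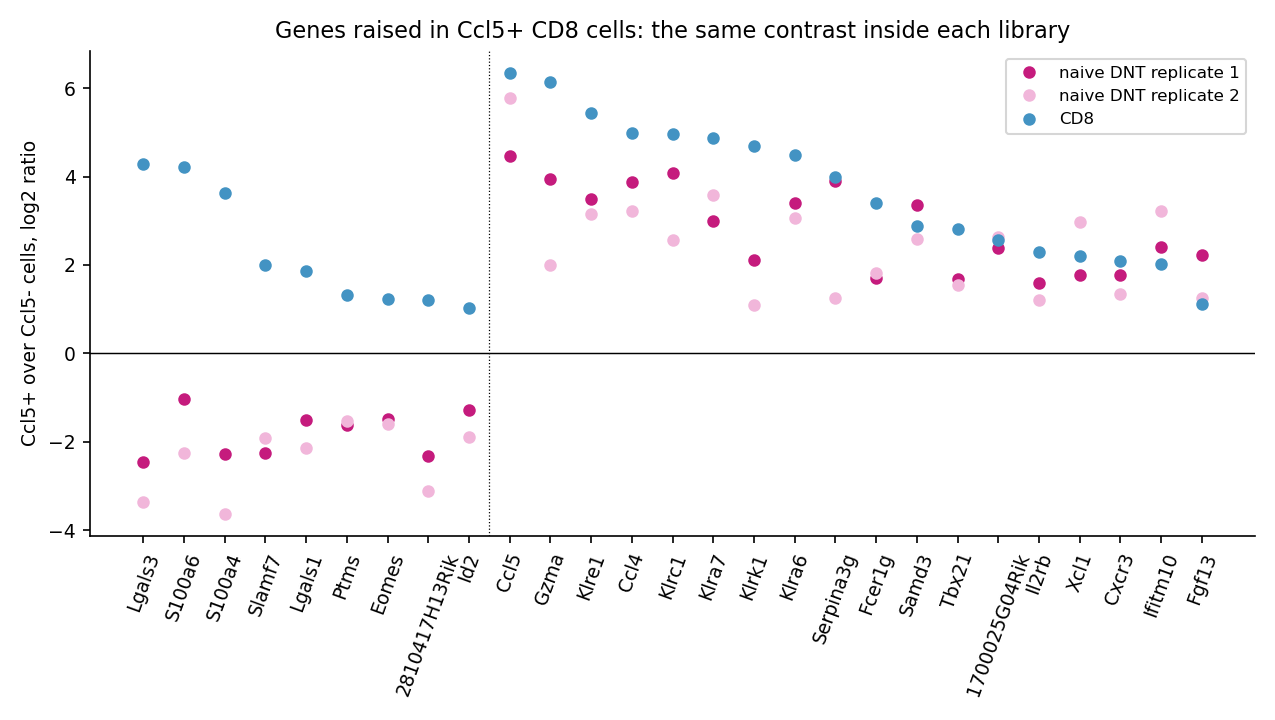
Log2 ratio of Ccl5+ to Ccl5- cells (y axis) inside naive DNT replicate 1, naive DNT replicate 2 and CD8, for the genes raised at least 2-fold in Ccl5+ CD8 cells that were 2-fold apart in both naive replicates. The 9 genes left of the dotted line, among them S100a4 and Lgals3, lie above 0 in CD8 and below 0 in both naive replicates, and the 18 to the right lie above 0 in all 3 libraries. Ccl5, which set the classes, is among the 18.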

How the data were processed

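Spleen T cells were profiled by 10x Chromium 3′ single-cell RNA sequencing, and the authors deposited raw UMI counts per gene and barcode, unnormalized (unit counts). Per the submitters' processing notes, Cell Ranger 2.1.0 and 3.0.1 were used with mm10 (GRCm38), and per the file headers the kit v3 matrices were written by software 3.0.2. The references hold 27998 (kit v2) and 31053 (kit v3) genes, of which 27514 IDs are shared, and 0.408% to 0.594% of UMIs fell outside them in the 3 libraries.

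From these counts, barcodes were filtered as the report states (4049 of 4072, 6728 of 7248 and 4655 of 4670 passed the quality limits, then 77, 203 and 11 were left out for Cd79a or Lyz2). No doublet caller was run, so doublets without those genes remain. UMIs were summed per library and given as CPM. Ratios are log2(CPM + 0.5). Cells were thinned without replacement to 1500 UMIs, leaving out 41, 77 and 10 shallower cells. CD8 cells were clustered with Leiden (resolution 0.6, 2000 genes, 30 components). The fold rule was tested on simulated data. TMM factors came from edgeR 4.0.16 (R 4.3.3). Other steps used scanpy 1.11.5 for clusters, SciPy 1.17.1 for intervals and matplotlib 3.10.9 for plots, under Python 3.11.15. Coordinates are GENCODE M21 on GRCm38, with 491 of 491 IDs matched, and promoters are RefSeq. Intervals and floors cover counting error only.

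Genes named come from the 15 of highest and the 15 of lowest fold outside the B cell, myeloid and red cell lists, the 8 leading genes of the shared and not shared classes, and 2 to 6 examples of each of 21 lists by CPM difference plus those that define it. Ptms, Pim3, Gna13, the leading genes of CD8 clusters and the genes set apart by the Ccl5 classes were chosen after their values were seen. The members and lists were chosen with earlier results of these data known, so no pattern here is independent support. Alternatives were 2 scalings, other CPM, fold, mitochondrial and Ccl5 limits, per-cell means, thinned cells, kept or further removed barcodes, each naive library left out, and Cd8-bearing TCRab barcodes (1840, with no Cd4 UMI) in place of the CD8 library.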

Additional observations from a re-analysis of the deposited data

Results flagged for a closer look

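Of the 68 genes at least 2-fold higher in Ccl5+ than in Ccl5- CD8 cells, 18 were also 2-fold higher in the Ccl5+ cells of both naive DNT libraries, while 9 were at least 2-fold lower there, with 20 CPM or more in Ccl5- cells of both. Ccl5, which set the classes, is among the 68 and the 18 for that reason and is no finding. Over all genes more were lower than higher in Ccl5+ naive cells, 131 of 4096 (3.2%) against 42 of 3625 (1.16%). These 9 were picked by the rule that both naive libraries move one way and the CD8 library the other, so that pattern is no added support. The difference was not tested. S100a4, a calcium-binding protein of motile cells, was 13.3-fold higher in Ccl5+ CD8 cells, but 4.89-fold and 12.5-fold higher in the Ccl5- cells of naive replicates 1 and 2. Its levels in Ccl5+ and Ccl5- cells were 104 and 508 CPM in naive replicate 1, 76.8 and 956 in naive replicate 2 and 91.5 and 6.90 in CD8. Lgals3, the lectin galectin-3, was 24.9-fold higher in Ccl5+ CD8 cells, but 5.53-fold and 10.4-fold higher in the Ccl5- cells of naive replicates 1 and 2. Its levels in Ccl5+ and Ccl5- cells were 41.2 and 228 CPM in naive replicate 1, 24.9 and 260 in naive replicate 2 and 41.1 and 1.65 in CD8. In both genes the naive replicates had the higher level in Ccl5- cells. S100a6, a relative of S100a4, was 19.1-fold higher in Ccl5+ CD8 cells, but 2.05-fold and 4.79-fold higher in the Ccl5- cells of naive replicates 1 and 2. Slamf7, an NK and memory cell receptor, was 4.34-fold higher in Ccl5+ CD8 cells, but 4.82-fold and 3.85-fold higher in the Ccl5- cells of naive replicates 1 and 2. Lgals1, the lectin galectin-1, was 3.62-fold higher in Ccl5+ CD8 cells, but 2.83-fold and 4.39-fold higher in the Ccl5- cells of naive replicates 1 and 2.

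Eomes, the T-box factor, was 2.37-fold higher in Ccl5+ CD8 cells, but 2.80-fold and 3.06-fold higher in the Ccl5- cells of naive replicates 1 and 2. Id2, an inhibitor of E proteins, was 2.06-fold higher in Ccl5+ CD8 cells, but 2.43-fold and 3.73-fold higher in the Ccl5- cells of naive replicates 1 and 2. Ptms, parathymosin, was 2.60-fold higher in Ccl5+ CD8 cells, but 3.10-fold and 2.91-fold higher in the Ccl5- cells of naive replicates 1 and 2. 2810417H13Rik, a cell cycle gene, was 2.34-fold higher in Ccl5+ CD8 cells, but 5.35-fold and 9.84-fold higher in the Ccl5- cells of naive replicates 1 and 2. With 5 or more Ccl5 UMIs as the limit 17 genes went opposite ways, all 9 among them, with thinned cells 7 and without red cell barcodes 6, and 5 of the 9 (Slamf7, S100a4, Lgals3, Eomes and Lgals1) did so in all of these, which were chosen after seeing the data. The Ccl5- cells of replicate 1 number 216.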

How the results depend on the processing

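The counts moved with the scaling and limits. Genes higher, lower, higher and also above Ccl5+ CD8 cells, and lower and lowered in Ccl5+ CD8 cells numbered 188, 22, 128 and 5 in the values reported, 125, 41, 81 and 8 with TMM and 123, 43, 79 and 8 with median-of-ratios scaling. The 125 and 123 were all among the 188, and all 22 lower genes remained under both. Without a CPM minimum 2562 were higher and 482 lower, and with 50 CPM 94 and 11. At 3-fold 94 were higher, 12 lower, 20 raised in Ccl5+ CD8 cells (37 at 2-fold), 59 above Ccl5+ CD8 cells, 2 lowered and 6 under Ccl5+ CD8 cells (14 at 2-fold). Leaving out naive replicate 1 or 2 gave ranges of 227 to 2028 higher, 38 to 105 lower, 42 to 47 raised, 154 to 1817 above Ccl5+ CD8 cells, 7 to 10 lowered and 20 to 80 under Ccl5+ CD8 cells, with the larger value without replicate 1 each time. Against TCRab Cd8 barcodes 170 were higher and 34 lower. With Ccl5+ at 1 or more UMIs 18 were raised and 2 lowered, with 5 or more 8 were lowered, and with the memory-like cluster 8. The cause of these moves was not tested.

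Of 69 named genes, 55 were called under all 11 settings tried on them. Ahr, Ccl4, Cd9, Cd74, Eomes, Serpina3g, Txk and Tyrobp were lost under both scalings. Among lower genes, Ccr9, D930028M14Rik, Gzmm, Plac8, Ppic and 2810417H13Rik lost their calls against TCRab barcodes, and all of these but Ccr9 and D930028M14Rik under other settings too. Of 759 recomputed ratios 612 kept within the replicate spread, 145 moved and 2 turned sign, Ccl4 to -0.12 and Cd74 to -0.28 against TCRab barcodes. Immediate early genes higher numbered 18 with TMM, 18 against TCRab barcodes and 19 without either replicate 2 or red cell barcodes, and memory genes 10, 11, 15 and 13. Without replicate 1 they were 23 and 19. These list counts were chosen after seeing the data.

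No paired analysis was possible because CD8 has 1 library without a replicate number. Depth limits low genes: a gene at 0 UMIs in CD8 is bounded at 3 UMIs. The naive libraries differ in kit, depth and any sort or animal difference, which cannot be told apart.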
